A study of Sus scrofa with 35 samples.

Results

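Toll-like receptors (TLRs) were examined in whole blood of 35 growing pigs, with 1 array per pig. The 10 members of the family, TLR1 to TLR10, were found by the gene name that the scanner files give each probe, regardless of the measured values. These were 10 of the 45222 names in the files, many of which are sequence accessions, and 19 of the 60305 probes of the array that are not controls. The authors' table of log2 values, which holds 39072 probes, contained 18 of the 19 probes and 9 of the 10 genes. TLR5 was the gene without a probe in that table. All the pigs were castrated males. They belonged to the Creole breed (CR), to the Large White breed (LW) or to their F1 cross, and were housed from 11 weeks of age under the same conditions. Slaughter took place in thermoneutral (TN) conditions, at 24 °C, or after heat stress (HS), for which the sample labels give 30 °C and the protocol text gives 32 °C. HS lasted 5 d per the labels, and 4 or 5 d per the methods of the study. The groups held 6 pigs each (CR HS, F1 TN, F1 HS, LW TN and LW HS), except CR TN with 5 pigs. TN pigs were killed before the temperature rose, so that climate and day of slaughter cannot be told apart, and the labels give no pen, litter or day. No group was pooled, and no transgene or treatment other than heat was used.

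TLRs are membrane receptors of innate immunity that recognise molecules made by microbes. At the cell surface, TLR2 binds bacterial lipoproteins as a partner of TLR1 or TLR6, TLR4 with its coreceptor MD-2 (LY96) binds lipopolysaccharide, and TLR5 binds flagellin. In endosomes, TLR3 senses double-stranded RNA, TLR7 and TLR8 single-stranded RNA, and TLR9 DNA rich in unmethylated CpG. TLR10 is the least understood member and is found mainly in B cells. Most TLRs signal through the adaptor MYD88, IRAK kinases and TRAF6 towards NF-κB, whereas TLR3 and endosomal TLR4 use TICAM1 (TRIF) and interferon regulatory factors. In blood, TLR2, TLR4 and TLR8 are typical of monocytes and neutrophils, TLR7 and TLR9 of plasmacytoid dendritic cells and B cells. In the order of protein-coding genes of the pig RefSeq table (Sscrofa11.1), TLR10, TLR1 and TLR6 follow each other, and TLR8 lies next to TLR7.

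The probes are single-stranded DNA of 60 bases, and how far a value can be ascribed to its gene depends on them, so the sequences behind the results are given first, 5′ to 3′ as in the scanner files. Both TLR7 probes had the same 60 bases and are therefore 1 measurement made in different spots, with a Pearson correlation of 0.98 over the 35 pigs. The TLR2 probes lie in different stretches and correlated at 0.88.
TLR7, O8628 and A_72_P165031: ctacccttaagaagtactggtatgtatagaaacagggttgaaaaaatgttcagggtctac
TLR2, A_72_P088356: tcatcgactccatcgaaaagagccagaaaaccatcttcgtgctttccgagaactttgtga
TLR2, O12067: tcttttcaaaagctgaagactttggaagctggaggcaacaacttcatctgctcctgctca
The TLR3 probes are shown because they overlap by the 48 bases in capitals, so that their agreement (r = 0.73) is also partly that of repeated spots.
TLR3, A_72_P471206: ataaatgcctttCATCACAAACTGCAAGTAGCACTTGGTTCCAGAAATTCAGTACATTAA
TLR3, A_72_P303279: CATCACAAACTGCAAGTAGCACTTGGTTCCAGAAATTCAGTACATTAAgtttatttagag

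The TLR6 probes are shown because their values hardly varied together over the pigs. Capitals in the first sequence mark its last 14 bases, GCTCAGTGGGTTAA, which also occur on the same strand in 8 other probes of the array, all of which are in the authors' table.
TLR6, O10727: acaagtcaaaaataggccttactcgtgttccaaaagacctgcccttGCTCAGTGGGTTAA
TLR6, A_72_P088166: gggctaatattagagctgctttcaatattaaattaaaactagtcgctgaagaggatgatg
Those 8 probes had mean log2 signals from 9.31 to 18.85 (median 15.33, against 7.12 for all probes of the table), and their median correlation with O10727 over the pigs was 0.86. O10727 itself had a mean log2 signal of 14.82 and A_72_P088166 of 5.81. The correlation between them was 0.13 over the 35 pigs and 0.11 after the group means were removed. A_72_P088166 was dim, and a copy of its 60 bases elsewhere on the array correlated with it at 0.578, so the part of spot noise in the low value was not tested. The 3 named genes whose probes were most like O10727 were TARS2, CASP10 and ALG10 (r = 0.93, 0.93 and 0.92). The search for shared bases was added after the values had been seen. Among the other 17 probes of the table, none shared a run of 14 bases with more than 4 probes of other names. O10727 is reported below as the probe that carries the TLR6 name, beside A_72_P088166.

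For the other genes with several probes, the probes were closer to each other. TLR1 correlated at 0.92 between its 2 probes. The 5 TLR4 probes correlated at 0.42 to 0.91 with each other, the lowest value being that between its 2 dimmest probes. Over all 35 arrays, 14 of the 19 probes were flagged well above background in the scanner files. Both TLR3 probes (on 32 and 29 arrays) and the TLR4 probes A_72_P444577 and A_72_P419074 (30 and 28 arrays) fell short on some arrays, and the TLR5 probe reached it on 2 arrays, both of F1 HS pigs. TLR5 log2 signals after quantile normalisation ranged from 4.70 to 5.47 and its mean lay between 4.95 and 5.17 in the 6 groups. TLR5 was therefore not well above background on any array of 5 groups and received no test. Each gene below is given by its lead probe, the one with the highest mean log2 signal in the authors' table, and by its other probes. Signals of different probes are not comparable with each other, so no gene is ranked against another by its level.

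On a log2 scale, the spread between pigs of the same group (within-group SD) was 0.19 to 0.54 for the lead probes, against a median of 0.27 over all probes. TLR4 had the widest spread, with values from 7.14 to 9.78 over all pigs, and TLR9 the narrowest of the lead probes, with 5.66 to 6.36. Whole blood is a mixture, and more cells of a type cannot be told apart from more RNA per cell. Of the markers of white cells, 14 of 20 neutrophil, 11 of 15 monocyte and 9 of 15 B cell markers had a probe in the table, as did 17 of 24 erythroid markers. The probes of the erythroid genes AHSP and HBB had mean log2 signals of 17.76 and 17.44, so red cell RNA was present. On each array, 55.2% to 68.0% of probes were well above background. F1 TN pigs had the lowest median of the 75th percentile of the processed signal (152). Their range of 112 to 186 overlapped those of F1 HS pigs (172 to 266, median 249.5) and of the other groups (145 to 329).

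**Figure D1:**
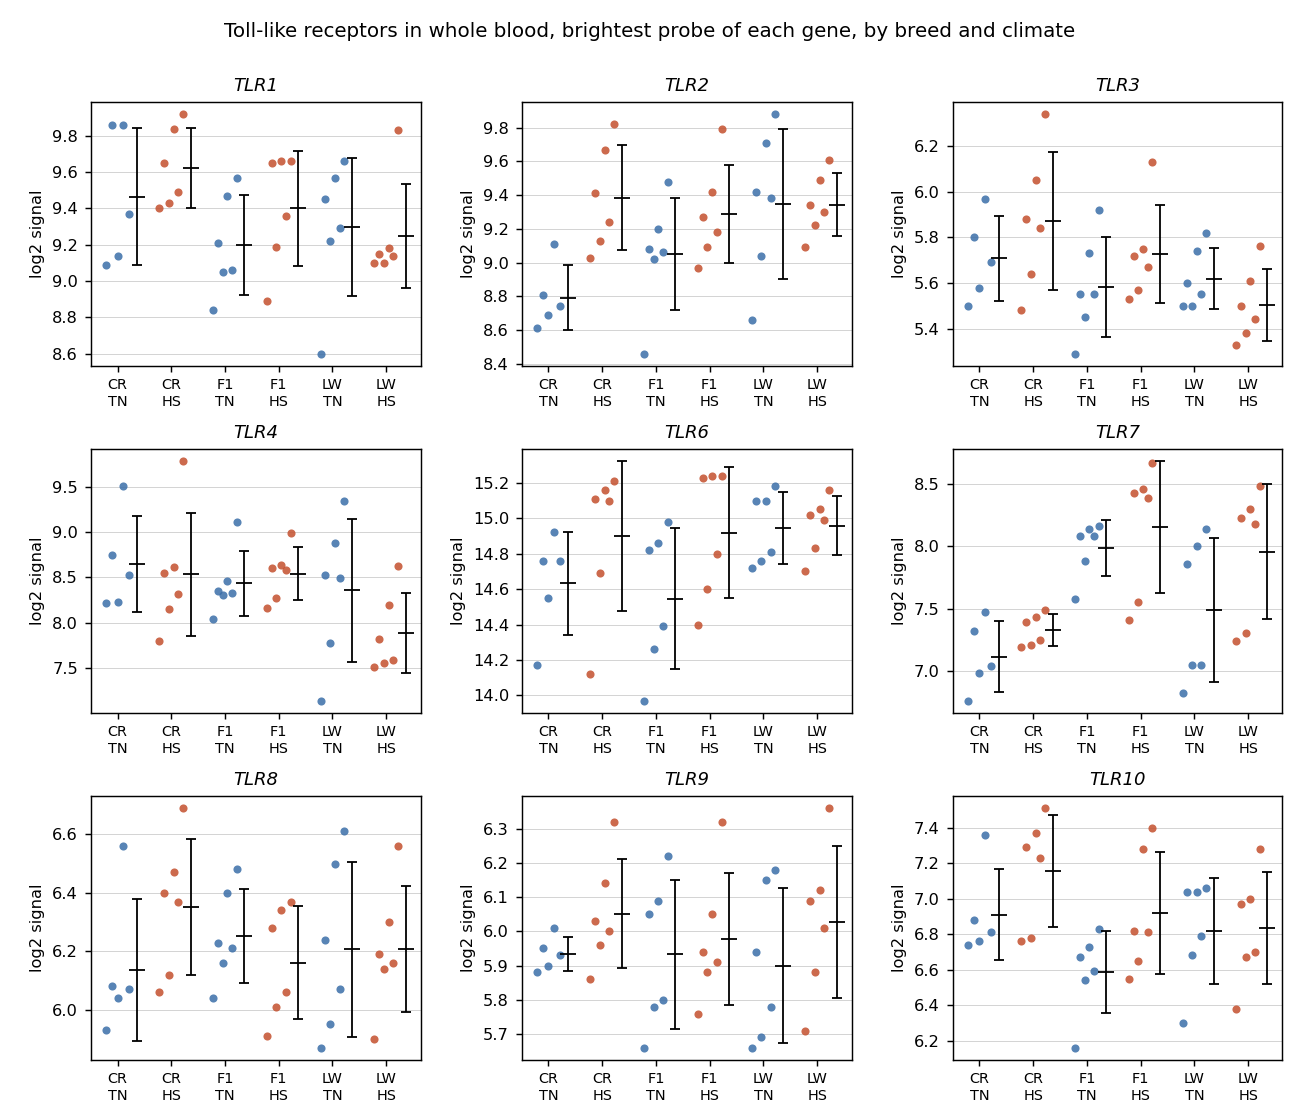
Log2 signal (y axis, a separate scale in each panel) of the lead probe of the 9 TLR genes in the authors' table, by breed and climate (x axis). Points are pigs, blue for TN and red for HS, and the bar beside them gives the mean ± SD of the group. The mean of TLR7 is highest in F1 pigs and lowest in CR pigs, but the breeds overlap (CR 6.76 to 7.49, LW 6.82 to 8.48, F1 7.41 to 8.67). For the other genes the groups also share part of their range. For TLR2, 1 CR TN pig (9.11) lies above the lowest CR HS pig (9.03).

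The first question was whether TLR transcripts in blood responded to HS across breeds. TLR2, the receptor for lipoproteins, was the gene with a probe past the threshold, and it was slightly higher in HS pigs. In a model of breed and climate fitted with limma, 1 of the 18 TLR probes passed an adjusted p of 0.05, whereas 34.8% of all probes of the table did (20.1% higher and 14.7% lower in HS). At an unadjusted p under 0.05, there were 5 of 18 TLR probes against 46% of all probes. Whether the TLR share differed from that of all probes was not tested. The model treated pigs as independent. The study, whose model held pen, slaughter day, father and mother as random effects, called far fewer probes in blood. The median difference between HS and TN was 0.10 log2 over the TLR probes and 0.06 over all probes, and 15 of the 18 differences were positive.

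The TLR2 probe that passed was O12067. Its log2 signals in CR TN pigs were 6.65, 6.73, 6.83, 6.84 and 7.02. In CR HS pigs they ran from 7.06 to 7.50 (median 7.39), so that the groups did not overlap. F1 pigs had values from 6.55 to 7.42 in TN (median 7.03) and from 6.98 to 7.63 in HS (median 7.15), and LW pigs from 6.50 to 7.37 in TN (median 7.19) and from 6.97 to 7.42 in HS (median 7.26). In F1 and LW pigs, both climates covered much the same range apart from a low pig in each TN group. Over all breeds, the means were 7.0 ± 0.28 (SD, n = 17) in TN and 7.25 ± 0.20 (n = 18) in HS, a difference of 0.25 ± 0.08 log2 (SE, 1.19-fold, 95% interval 0.08 to 0.42, limma adjusted p = 0.0201). Signals above the TN mean of the same breed were found in 15 of the 18 HS pigs.

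The other TLR2 probe, A_72_P088356, gave nearly the same difference but missed the threshold (0.26 ± 0.11, 95% interval 0.04 to 0.48, limma adjusted p = 0.0545), with 13 of 18 HS pigs above the TN mean of their breed. With slide as a block it passed (0.27, adjusted p = 0.0306). The mean of CR TN pigs was again the lowest of the 6 groups on this probe, with values of 8.61, 8.69, 8.74, 8.81 and 9.11 against 9.03 to 9.82 in CR HS pigs (median 9.33). The lowest single pig was an F1 TN pig (8.46), and the lowest LW TN pig was at 8.66. Markers of blood cells were also compared between climates, beside 34.8% of all probes that passed (20.1% higher and 14.7% lower in HS). In the same fit, 8 of 17 erythroid markers were lower and 1 was higher in HS pigs (median -0.67 log2), and the mean of that list, centred on all pigs, ran from -0.72 to 1.58 in TN pigs and from -1.53 to 0.55 in HS pigs. With this mean as a covariate, the difference of O12067 was 0.21 with an adjusted p of 0.206, and 3 probes of the whole table passed. Of 11 monocyte markers, 3 were higher in HS pigs (list means of -0.57 to 0.33 in TN and -0.40 to 0.89 in HS), and of 14 neutrophil markers 1 was lower (-0.75 to 0.96 in TN and -1.43 to 0.84 in HS). Of 9 B cell markers, 5 were higher (median 0.28; list means of -0.60 to 0.45 in TN and -0.47 to 0.56 in HS), and of 11 T cell markers 3 were higher (median 0.15; -0.58 to 0.62 in TN and -0.63 to 0.41 in HS). The shares of monocyte, neutrophil and T cell markers that passed did not exceed that of all probes. The part of monocytes and lymphocytes in the result was not tested, and with the neutrophil mean as a covariate O12067 remained past the threshold (0.25, adjusted p = 0.0413). Without the F1 pigs, the difference was 0.30 with an adjusted p of 0.205, and 0 probes of the table passed. Within the 4 slides where the model could be fitted, the difference of O12067 was 0.53, 0.27, 0.30 and 0.16.

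**Figure D2:**
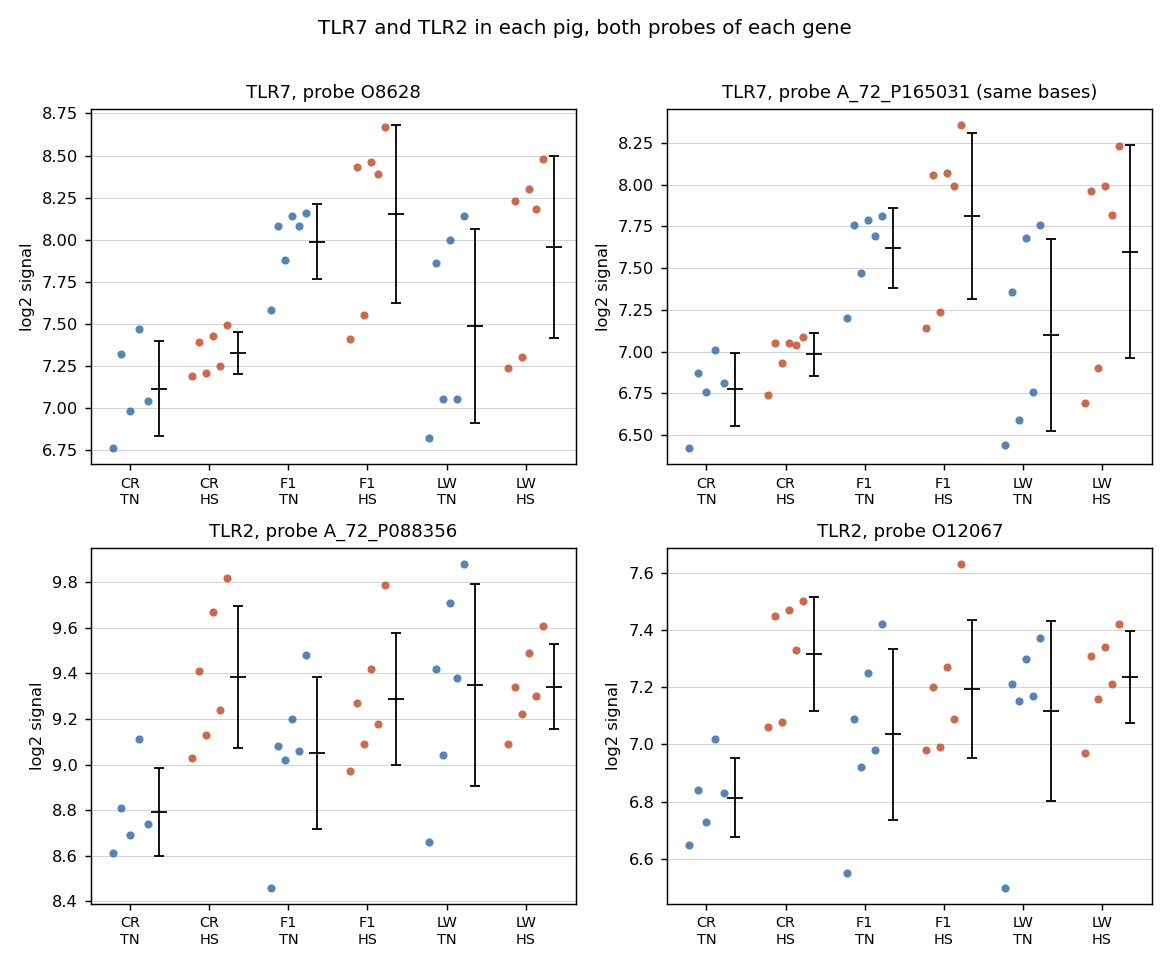
Log2 signal of both TLR7 probes (top) and both TLR2 probes (bottom) in each pig, by breed and climate, with the mean ± SD beside the points (blue TN, red HS). On O12067, CR TN pigs reach 7.02 and CR HS pigs start at 7.06, whereas F1 and LW pigs overlap between climates. On both TLR7 probes, LW pigs split into low and high values in both climates.

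TLR1 and TLR6 are the partners of TLR2 at the cell surface. TLR1 differed by 0.10 ± 0.10 log2 (lead probe) and 0.03 ± 0.09 (second probe) between HS and TN, with 95% intervals of -0.10 to 0.31 and -0.16 to 0.22 and adjusted p of 0.44 and 0.805. For TLR6, O10727 differed by 0.21 (95% interval -0.01 to 0.43, adjusted p = 0.117), and it passed with slide as a block (0.22, adjusted p = 0.0251). A_72_P088166, which does not hold the repeated bases, differed by 0.14 ± 0.06 (95% interval 0.02 to 0.25, adjusted p = 0.0537), with 15 of 18 HS pigs above the TN mean of their breed. Its 60 bases are also on the array under a sequence accession, and that copy was 0.22 higher in HS with an adjusted p of 0.0114. The copy and the member probe correlated at only 0.58 over the pigs, and the mean log2 signal of both was near 5.8, so the call for TLR6 depended on which of these spots was used.

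TLR4 and TLR5 recognise lipopolysaccharide and flagellin. TLR4 showed no common direction among its probes. The lead probe differed by -0.16 ± 0.18 (95% interval -0.52 to 0.19, adjusted p = 0.482) and the other 4 probes differed by -0.04 to 0.12. Only 6 of 18 HS pigs lay above the TN mean of their breed on the lead probe. The range of TLR4 in LW TN pigs (7.14 to 9.34) exceeded every difference between group means.

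For the endosomal receptors, TLR7 had the largest difference between climates of the lead probes, 0.29 ± 0.14 (95% interval 0.01 to 0.56), but with an adjusted p of 0.0966. TLR3, TLR8 and TLR9 differed by 0.06 ± 0.07, 0.04 ± 0.08 and 0.10 ± 0.07, with adjusted p of 0.53, 0.729 and 0.249. The intervals of these 3 genes ran from -0.12 at the lowest to 0.23 at the highest. TLR10 differed by 0.20, with an adjusted p of 0.114. A TLR8 probe under a sequence accession that shares 56 bases with the member probe gave 0.17 ± 0.08 (adjusted p = 0.0727), and its correlation with the TLR8 member was 0.58.

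**Figure D3:**
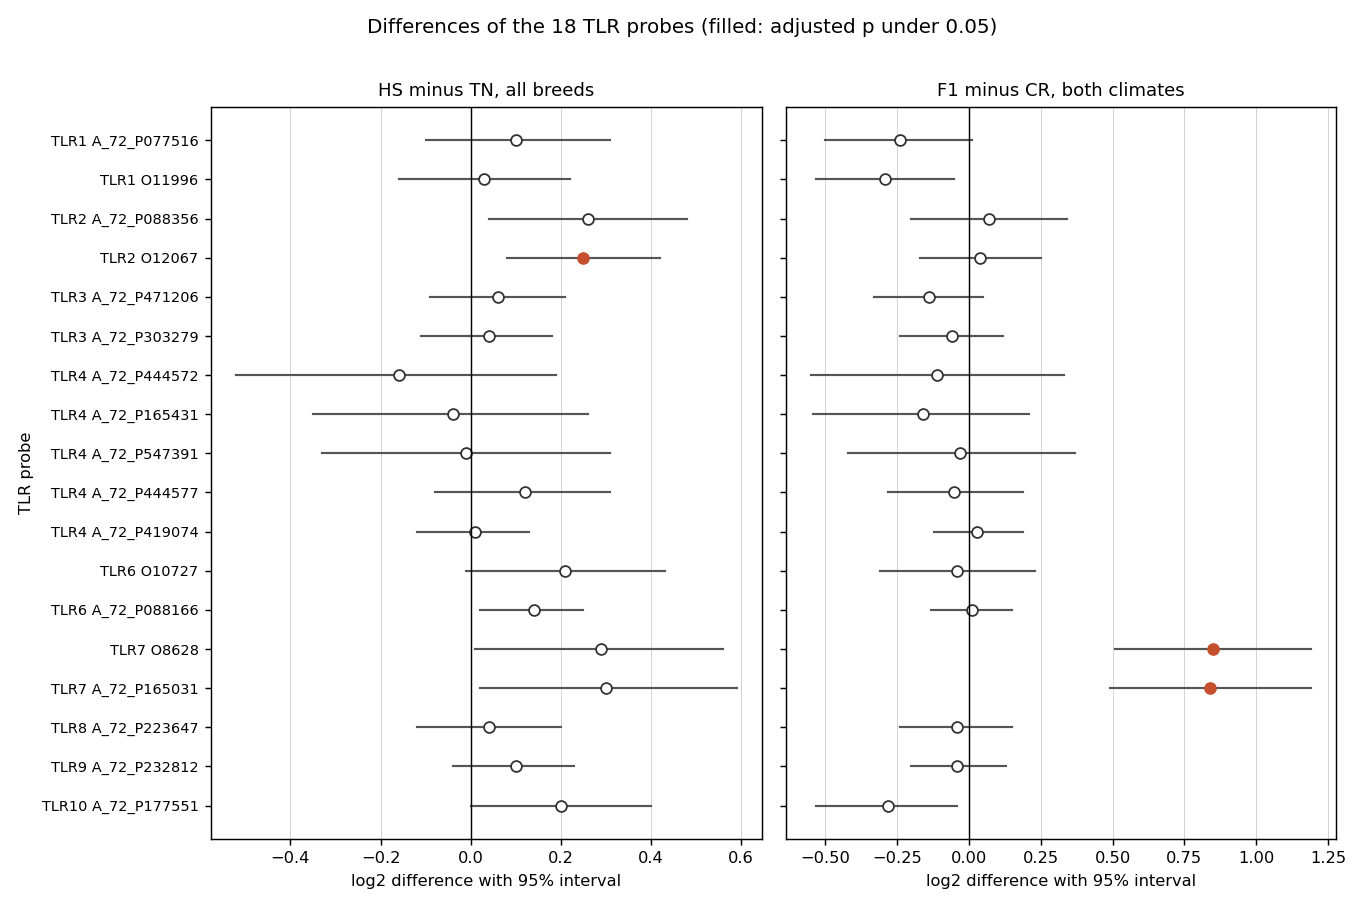
Log2 difference (x axis) with its 95% interval for each of the 18 TLR probes (y axis), for HS minus TN over all breeds (left) and F1 minus CR (right), each panel with its own scale. Filled points passed an adjusted p of 0.05 over all 39072 probes. On the left, only TLR2 O12067 is filled (0.25), and on the right both TLR7 probes (0.85 and 0.84).

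Within breeds, none of the 18 TLR probes passed the threshold for HS against TN by limma. In CR pigs there were 0 TLR probes (0% of all probes) and 2 at an unadjusted p under 0.05 (8.87% of all probes), both of TLR2. TLR2 differed by 0.59 and 0.50 log2 between CR HS and CR TN, with 95% intervals of 0.22 to 0.96 and 0.21 to 0.79 and an adjusted p of 0.557 for both, and all 6 CR HS pigs lay above the CR TN mean on each probe. O12067 was the 1 TLR probe whose CR groups did not overlap, which held for 0.461% of all probes. In LW pigs, TLR2 differed by -0.01 (95% interval -0.36 to 0.35) and 0.12 (-0.16 to 0.40), and 0 TLR probes passed (0% of all, and 2 at an unadjusted p under 0.05 against 8.71%). TLR6 on A_72_P088166 was the TLR probe whose LW groups did not overlap (TN up to 5.75, HS from 5.76, 0.22 log2, adjusted p = 0.564), as for 0.781% of all probes. In F1 pigs there were also 0 TLR probes, although 38.7% of all probes passed, and 1 TLR probe had an unadjusted p under 0.05 against 48.9%. F1 pigs are also where the erythroid list (0.53 ± 0.63 in TN and -0.48 ± 0.62 in HS, SD, n = 6 each) and the 75th percentile differed most between climates. In this breed the lead probes ran from -0.09 for TLR8 to 0.37 for TLR6, with adjusted p from 0.105 to 0.796. With slide as a block, TLR6 on O10727 (0.46, adjusted p = 0.0055) and TLR10 (0.42, 0.0358) passed in F1 pigs, beside 16873 of all 39072 probes. Without the block, TLR10 differed by 0.33 in F1 pigs (adjusted p = 0.112), 0.25 in CR pigs and 0.01 in LW pigs.

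Whether these effects differed between breeds was tested by the interaction of breed and climate. For the interaction, 0 of 18 TLR probes and 0% of all probes passed, with 0 and 14.9% at an unadjusted p under 0.05, and the smallest adjusted p of a TLR probe was 0.344 (TLR4 A_72_P444577). TLR2 had interaction adjusted p of 0.376 and 0.449. The larger TLR2 difference in CR pigs was therefore not shown to differ from that of the other breeds. For TLR4, the difference between HS and TN in LW pigs was negative on all of its 5 probes (-0.04 to -0.48), with adjusted p of 0.585 or more, and on the lead probe it was -0.11 in CR pigs and 0.11 in F1 pigs.

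The second question was whether TLR transcripts differed between breeds. TLR7 did: it was higher in F1 than in CR pigs, in both climates. On the lead probe, CR TN pigs had log2 signals of 6.76, 6.98, 7.04, 7.32 and 7.47, and CR HS pigs from 7.19 to 7.49 (median 7.32). F1 pigs lay between 7.58 and 8.16 in TN (median 8.08) and between 7.41 and 8.67 in HS (median 8.41). The CR values were thus all at or below 7.49, and 1 F1 pig, at 7.41, lay below the highest CR pig. LW TN pigs had 6.82, 7.05, 7.05, 7.86, 8.00 and 8.14, and LW HS pigs 7.24, 7.30, 8.18, 8.23, 8.30 and 8.48. No LW pig lay between 7.30 and 7.86, so the LW values fell into a lower set in the range of CR pigs and an upper set in the range of F1 pigs, in both climates. The lower LW pigs were on slide 1 (6.82 and 7.30), slide 2 (7.05 and 7.24) and slide 4 (7.05). The upper LW pigs were mostly on slides 3 and 5, with 8.18 on slide 2 and 8.48 on slide 4. The lowest F1 pigs (7.41 and 7.55) were also on slide 1. The part of slide in this split was not tested, nor that of litter or pen, which the labels do not give.

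The difference in TLR7 between F1 and CR pigs was 0.85 ± 0.17 log2 (SE, 1.80-fold, 95% interval 0.51 to 1.19, limma adjusted p = 0.0127), with means of 8.07 in the 12 F1 pigs and 7.23 in the 11 CR pigs. All 12 F1 pigs lay above the CR mean of their climate. Pigs of a breed came from a few litters and shared pens, which the labels do not give, and this fit treated them as independent. The probe with the same bases gave 0.84 ± 0.17 (adjusted p = 0.0183), and there the breeds did not overlap (CR up to 7.09, F1 from 7.14). Thus 2 of the 18 TLR probes, which are 1 sequence, passed in F1 minus CR, against 0.184% of all probes in either direction and 0.107% that were higher in F1, and 1 did not overlap between breeds, against 0.0128%. A TLR7 probe that overlaps these by 44 bases and is filed under a sequence accession differed by 0.87 ± 0.16 (adjusted p = 0.008). With slide as a block the difference on the lead probe was 0.83 (adjusted p = 0.0057), and within the 4 slides that could be fitted it was 0.48, 0.84, 0.87 and 1.31. Markers of cells known to hold TLR7 were read in the same comparison, in which 0.184% of all probes passed. Among 5 plasmacytoid dendritic cell markers 0 passed (median 0.03 log2, 3 positive, list means of -0.18 to 0.37 in CR and -0.43 to 0.28 in F1 pigs). Among 9 B cell markers 0 passed (median -0.23 log2, 1 positive, list means of -0.30 to 0.56 in CR and -0.60 to 0.53 in F1 pigs). The part of these cells in the TLR7 difference was not tested.

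Against LW, TLR7 did not pass. CR minus LW was -0.50 ± 0.17 (95% interval -0.84 to -0.16, adjusted p = 0.175), with 0 of 11 CR pigs above the LW mean of their climate, and F1 minus LW was 0.35 ± 0.16 (0.02 to 0.68, adjusted p = 1). Within slides 1 to 4, where the model could be fitted, CR minus LW on the TLR7 lead probe was 0.06, 0, -0.93 and -0.66. In CR minus LW, 0 of 18 TLR probes passed, against 1.08% of all probes, and 6 had an unadjusted p under 0.05, against 10.1%. These were TLR1, TLR3, TLR4 on 2 probes and TLR7 on both spots. The means of TLR1, TLR3 and TLR4 were higher in CR pigs, by 0.27 ± 0.13, 0.23 ± 0.09 and 0.47 ± 0.22 on their lead probes, with adjusted p of 0.453, 0.304 and 0.436. In F1 minus LW, 0 of 18 passed, against 0.0256% of all, and 2 (both TLR7) had an unadjusted p under 0.05, against 4.48%. Apart from TLR7, the differences between F1 and CR pigs were within 0.29 log2 on every TLR probe. TLR1 (-0.24) and TLR10 (-0.28) were the lowest of the lead probes, with adjusted p of 0.941 and 0.889. These comparisons share the same pigs and are not independent of each other. TLR8, the neighbour of TLR7, differed by -0.04 ± 0.10 between F1 and CR pigs.

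The other genes of the TLR pathway were read by the same fit, with the brightest probe of each gene, for HS minus TN (34.8% of all probes passed). Coreceptors and chaperones of TLRs had 4 higher and 1 lower among 8 measured genes (median 0.11 log2, against 0.06 for all probes). CD180 and LY86, which form a TLR4-like receptor complex on B cells, were higher by 0.33 ± 0.10 (adjusted p = 0.015) and 0.35 ± 0.12 (0.0271). B cell markers were higher in the same comparison (5 of 9, list means as given above for TLR2), and their part in these differences was not tested. HSP90B1, the chaperone that folds TLRs, was 0.37 ± 0.09 higher (adjusted p = 0.00394), and its other probes differed by 0.25 to 0.35. CNPY3, its partner, was 0.43 higher (adjusted p = 0.00771), but its probe shared 14 bases with 12 probes of other names, with a median correlation of 0.69. LBP, which hands lipopolysaccharide to CD14, differed by -0.21 (adjusted p = 0.0396). CD14 itself differed by -0.10 ± 0.17 and LY96 by -0.42 ± 0.18 (adjusted p = 0.657 and 0.0642).

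Among adaptors, kinases and ubiquitin ligases, 9 of 18 measured genes were higher and 3 lower in HS pigs (median 0.17). TICAM1, the adaptor of TLR3, differed by -0.35 ± 0.11 (adjusted p = 0.0163) and the kinase IRAK1 by -0.44 ± 0.13 (0.00781), each on the 1 probe it has. MYD88, the adaptor of most TLRs, differed by -0.66 ± 0.13 (adjusted p = 0.00159) on its brightest probe, but by 0.24 on both of its other probes (adjusted p = 0.185 and 0.07), which correlated with the first at -0.13 and -0.19. The direction of MYD88 therefore depended on the probe. The adaptor TIRAP (0.13, adjusted p = 0.0399) and the kinase IRAK2 (0.20, 0.0306) were higher. Also higher were IKBKE (0.43 ± 0.11, adjusted p = 0.00378) and RIPK1 (0.37 ± 0.10, 0.00501), kinases of the TICAM1 branch, and TRAF6 (0.35 ± 0.11, 0.0194) and TAB1 (0.27 ± 0.09, 0.0169), which activate the kinase TAK1. Of 5 measured negative regulators, TOLLIP, which holds IRAK1 in check, was lower (-0.51 ± 0.13, adjusted p = 0.0041), and RNF216 and TRIM38, ubiquitin ligases that act on TLRs and TRAF6, were higher (0.30 and 0.33).

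Transcription factors had 2 higher and 2 lower among 9 measured genes on their brightest probes (median 0.04). These counts depended on the probe. CREB1 passed as higher on its other probes (0.23 and 0.22, adjusted p = 0.0108 and 0.0083). IRF1 (0.31, adjusted p = 0.0466) and IRF3 (0.28, 0.0218) passed as higher on another probe, and FOS as lower (-0.30, 0.00351). NFKB1, which encodes a subunit of NF-κB, was higher by 0.39 ± 0.10 (adjusted p = 0.00444), and by 0.35 and 0.30 on its other probes. RELA, another subunit, differed by -1.30 ± 0.27 on its brightest probe (adjusted p = 0.00159), but by 0.34 and 0.31 on a pair of others (0.0242 and 0.0118), so that it passed in opposite directions. IRF7, which acts downstream of TLR7 and TLR9, differed by 0.04 on its brightest probe and by -0.66 on another (adjusted p = 0.873 and 0.00241). IRF5, which also acts there, was higher by 0.34 ± 0.09 (adjusted p = 0.00646) and JUN differed by -0.45 ± 0.12 (0.0056). Of 13 measured target genes, 2 were higher and 0 lower (median -0.14). These were the costimulators CD40 (0.34 ± 0.13, adjusted p = 0.0362, and 0.39 to 0.41 on its other probes) and CD80 (0.31 ± 0.07, 0.00166, but -0.08 on its other probe, which correlated at -0.04). On their brightest probes, the inflammatory cytokines TNF (-0.20 ± 0.10) and IL1B (-0.15 ± 0.15) and the chemokine CXCL8 (-0.14 ± 0.11) did not pass, with adjusted p of 0.0953, 0.45 and 0.317. TNF passed as lower on another probe (-0.25 ± 0.07, adjusted p = 0.01), which correlated with the brightest at 0.75. Its remaining probe differed by -0.14 (adjusted p = 0.137). The erythroid list moved in the same comparison, as given above for TLR2, and with its mean as a covariate 3 probes of the whole table passed. In F1 minus CR, where TLR7 differed, 0 genes of these 5 lists passed, beside 0.184% of all probes.

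**Figure D4:**
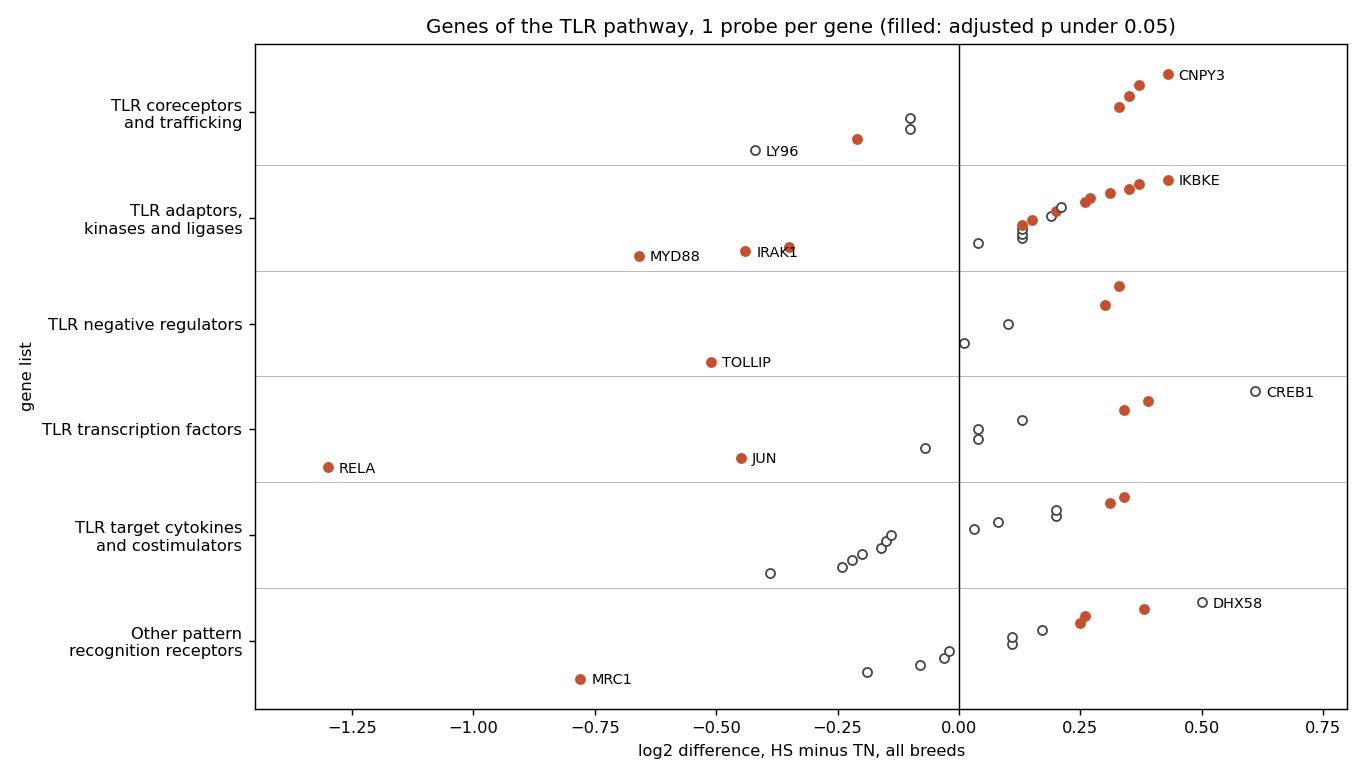
Log2 difference between HS and TN pigs over all breeds (x axis) of the genes in the TLR pathway lists and of other pattern recognition receptors (y axis, grouped by list), 1 point per gene for its brightest probe and filled where the adjusted p was under 0.05. Genes beyond 0.4 in either direction are named. RELA (-1.30), MRC1 (-0.78) and MYD88 (-0.66) lie farthest to the left, and each of them had a positive difference on another probe.

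TLR signals over pigs were next set against the mean of 4 marker lists, to show which blood cell markers each receptor varied with. Over 36 pairs of 9 lead probes and 4 lists, 5 Pearson correlations passed after Benjamini-Hochberg adjustment (two-sided permutation test). TLR10 followed the B cell list most closely (r = 0.82, permutation p = 1e-05, the smallest that 100000 permutations can give, adjusted p = 0.00036; Spearman's rho = 0.74, permutation p = 1e-05, adjusted p = 0.00036). It was 0.81 without the 2 pigs farthest from the median of the list and 0.77 within groups. TLR8, TLR3 and TLR1 followed the monocyte list, with r = 0.59 (permutation p = 0.00019, adjusted p = 0.00342; rho = 0.53, adjusted p = 0.0185), 0.58 (p = 0.00035, adjusted p = 0.0042; rho = 0.42, adjusted p = 0.0833) and 0.53 (p = 0.00093, adjusted p = 0.00837; rho = 0.53, adjusted p = 0.0185). Without the 2 farthest pigs these were 0.46, 0.41 and 0.47. These genes did not vary with the monocyte list alone. Within groups, TLR8 also passed with the erythroid list (r = 0.50, permutation adjusted p = 0.0175) and the B cell list (r = -0.47, 0.0267). TLR3 also passed with the neutrophil list within groups (r = 0.48, permutation adjusted p = 0.0234), and by rank over all pigs (rho = 0.48, adjusted p = 0.0376). The fifth pair was TLR6 on O10727 with the erythroid list (r = -0.46, permutation p = 0.00523, adjusted p = 0.0377; rho = -0.44, adjusted p = 0.0598; r = -0.40 within groups, adjusted p = 0.0742), a probe that is set apart above. TLR2, TLR4, TLR7 and TLR9 passed with none of the 4 lists. For TLR7, the values were -0.14 (neutrophil), -0.12 (monocyte), 0.01 (B cell) and -0.19 (erythroid), and since LW pigs fall into separate sets on this gene a pooled correlation says little. The lists are themselves related, with r = 0.78 between erythroid and neutrophil markers and -0.60 between erythroid and B cell markers.

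Between receptors, the highest correlations over the 35 pigs were TLR1 with TLR10 (0.65, and 0.56 within groups), TLR1 with TLR3 (0.54), TLR3 with TLR4 and TLR2 with TLR6 on O10727 (both 0.52). TLR7 and TLR8, adjacent genes for single-stranded RNA, had the lowest (-0.45, and -0.61 within groups). These are descriptions over pigs that share slides and blood composition.

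**Figure D5:**
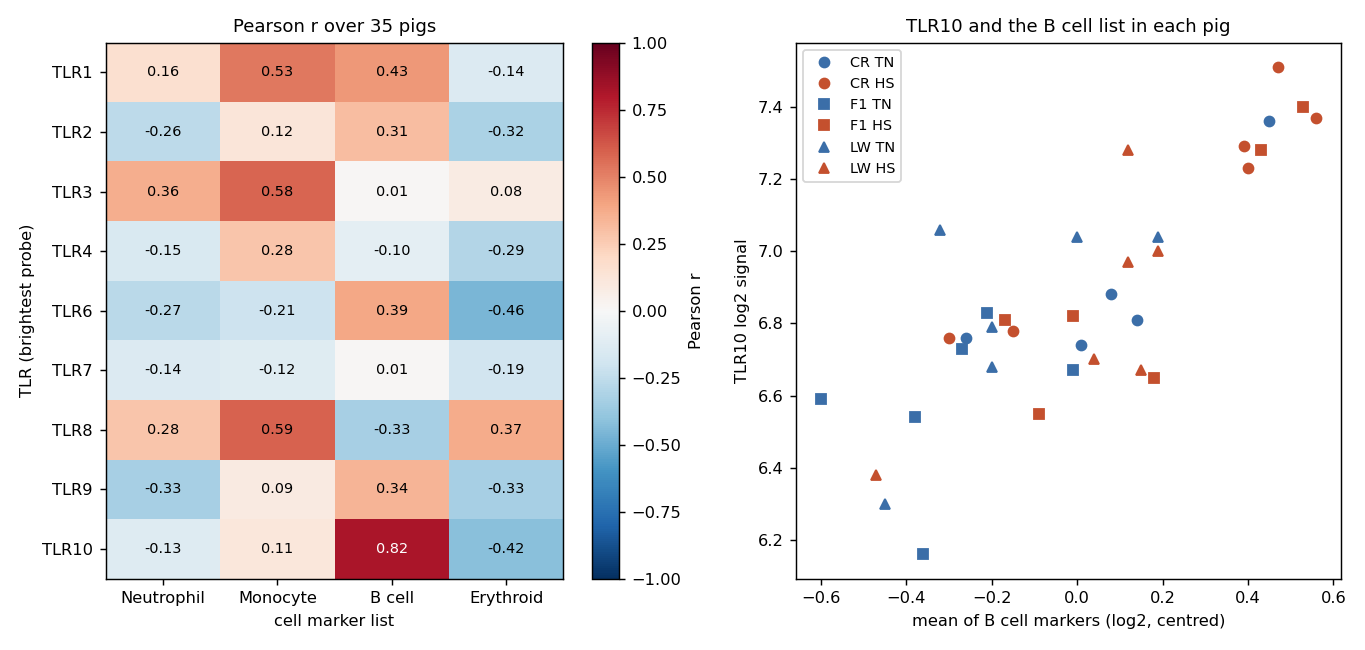
Left, Pearson correlation over 35 pigs (colour and number) of each TLR lead probe (rows) with the mean of each cell marker list (columns). Right, TLR10 log2 signal (y axis) against the mean of the B cell markers (x axis, log2, centred on all pigs) in each pig, with breed as symbol and climate as colour (r = 0.82).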

How the data were processed

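Blood RNA of each pig was hybridised to a 1-colour Agilent array of 60-base probes. Per the labels, scanner files came from Agilent Feature Extraction 10.10.1.1. The authors deposited scanner intensity values and a log2 table of median signals, quantile-normalised without background correction and filtered by a rule not given in the sources used here. The deposited log2 table was the source of all values except TLR5, read from the scanner intensity normalised here in the same way. The authors' columns correlated at 0.99987 or more with that recomputation.

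Probes were fitted with limma 3.58.1 in R 4.3.3 (lmFit, eBayes, two-sided). Breed plus climate was used for HS minus TN and for breeds, and the 6 group means for effects within a breed. P-values were adjusted by Benjamini-Hochberg over 39072 probes. Pen, slaughter day, father and mother, random effects in the study, are not in the labels and were not fitted, so pigs were treated as independent. Per the methods of the study, the pigs of a breed came from a few litters, and each pen held pigs of the same breed and climate. The SE, intervals and p-values given here do not allow for this nesting. The number of arrays limits the precision. Slides (5, of 4 to 8 arrays) were taken from array barcodes. Pigs within a group were numbered in record order.

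Members and gene lists were chosen with earlier results of these data known, and each list gene is given by its brightest probe. All TLRs were named. COX2, which can also mean a mitochondrial gene, was not taken as PTGS2. The limma script was tested on simulated data. Alternatives were scanner values, scaling, filters, slide, array weights, covariates, averaged probes and left-out pigs.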

Additional observations from a re-analysis of the deposited data

Results flagged for a closer look

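In 8 of 102 groups of 5 or 6 pigs (7.84%; about 5% are found by chance), the highest or lowest pig stood far from the others of its group on a TLR probe. For TLR1 (lead probe), LW HS pig 5 had a log2 signal of 9.83 while the others lay between 9.10 and 9.18. For TLR2 O12067, LW TN pig 1 was at 6.50 and the others at 7.15 to 7.37. For TLR3, F1 HS pig 1 was highest on both overlapping probes, with 6.13 against 5.53 to 5.75 and 6.05 against 5.42 to 5.64. For TLR6 A_72_P088166, CR HS pig 4 was at 5.67 (others 5.88 to 6.01) and F1 TN pig 2 at 6.0 (others 5.71 to 5.81). For TLR8, CR TN pig 4 was at 6.56 (others 5.93 to 6.08). For TLR10, CR TN pig 5 was at 7.36 (others 6.74 to 6.88).

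On 1 TLR4 probe, A_72_P444577, each of the 6 F1 HS pigs exceeded the F1 TN mean (0.34 log2 in mean), while each of the 6 LW HS pigs was below the LW TN mean (-0.19). The test of this difference gave 0.53 ± 0.21 (limma adjusted p = 0.156), and the probe was well above background on 30 of 35 arrays.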

How the results depend on the processing

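TLR7 in F1 minus CR passed under every alternative run, with differences from 0.75 to 1.0 and, without each pig in turn, 0.81 to 0.93. Its count was 2 throughout (2 to 2 without each pig), and 1 when probes of a gene were averaged. For HS minus TN, the count of TLR probes was 1 (13601 of all 39072 probes passed). It was 2 with scanner values normalised anew (13855 of all 41466 passed) and with 75th percentile scaling (14023 of 39072). It was also 2 with probes well above background on all arrays (11911 of 29552) and with averaged probes (10037 of 28066). Slide as a block gave a count of 3 (14429 of 39072) and array weights a count of 5 (17120 of 39072). It was 0 with the erythroid covariate (3 probes passed in the table) and 0 without F1 pigs (0 passed in the table). Without each pig in turn it ranged from 1 to 4. It was 4 without F1 HS pig 1, 3 without CR HS pig 1, and 2 without any of LW HS pigs 1, 2 and 5, F1 HS pigs 2 and 6, F1 TN pigs 2 and 3, CR HS pig 4, CR TN pig 5 and LW TN pigs 5 and 6. Within F1 pigs the count was 2 with slide as a block (TLR6 O10727 and TLR10, beside 16873 of all 39072 probes). It was 0 to 1 without each pig (1 without F1 HS pig 1 or F1 TN pig 5). Other counts stayed at 0. Of the 36 correlations with cell lists, 5 passed, 7 within groups, 9 with 75th percentile scaling and 3 without F1 pigs. No reversal of a called TLR difference occurred. The cause of these changes was not tested, except that fewer pigs or genes entered some fits. No paired analysis was possible because TN and HS pigs were different animals and the labels give no litter.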

Other observations

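Other pattern recognition receptors of the cytosol and cell surface were measured for 12 of 16 listed genes. In HS minus TN, 3 were higher and 1 lower (median 0.11 log2, against 0.06 for all probes), beside 34.8% of all probes that passed, so their share is no result about these receptors. CGAS and STING1, which sense DNA in the cytosol, were higher by 0.26 ± 0.09 (limma adjusted p = 0.0339) and 0.38 ± 0.10 (0.00381), and NLRP1, an inflammasome sensor, by 0.25 ± 0.10 (0.0494). The mannose receptor MRC1, a macrophage lectin, differed by -0.78 ± 0.20 (adjusted p = 0.00395) on its brightest probe and by 0.12 on the other (0.481), with a correlation of 0.03 between them. DDX58 (RIG-I) and IFIH1 (MDA5), which sense viral RNA, differed by 0.11 and -0.19 (adjusted p = 0.431 and 0.454), the latter on its brightest probe. The other IFIH1 probes differed by 0.20 and 0.19 (adjusted p = 0.152 and 0.0755) and correlated with the brightest at 0.24 and 0.57.

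By likeness over the 35 pigs, among 16711 probes with a gene name, TLR10 was closest to SLA-DRA (r = 0.86), ELL3 (0.86) and the B cell marker FCRL1 (0.85). TLR4 was closest to NFIL3 (0.84), STX11 and RBM47 (both 0.83). TLR2 was closest to ABCA1 (0.70), RNASEK and SLC11A1 (both 0.66), and TLR7 to CMBL (0.72), CCR9 (0.66) and GFPT1 (0.65). TLR8 was closest to SMC4 (0.62), MKI67 (0.61) and TESK2 (0.60), and TLR9 to FKBP15 and STAT3 (both 0.74). These values are descriptions without a test.

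A probe described as TLR4 but filed under a sequence cluster (mean log2 signal 6.67) correlated at 0.77 with the TLR4 lead probe and differed by 0.11 in HS minus TN (adjusted p = 0.514). Copies of member sequences under other names correlated with the member over the pigs at 0.976 for TLR1, 0.959 for TLR4, 0.879 for TLR10, 0.578 for TLR6 and 0.489 for TLR3.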
